A study of Mus musculus with 28 samples.

Results

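Immunoglobulin variable (V) segments were followed across bulk RNA libraries of spleen T cells from 28 mice. Members were genes whose symbol starts with Ighv (heavy chain), Igkv (kappa light chain) or Iglv (lambda light chain) and whose deposited counts summed to 100 or more over the 28 files. This rule took 188 of the 348 V genes in the files, which hold 55413 gene IDs in all: 101 of 185 heavy, 84 of 160 kappa and 3 of 3 lambda genes. The summed count chose the members, so their abundance is given as a description. The 188 members held 99.45% of the 422667 V counts. The members nearest the threshold were Igkv9-123 with 109 counts and Igkv11-125 with 105 counts, and the genes just outside it were Igkv6-29 with 95 and Igkv4-81 with 94.

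All mice were male C57BL/6J of 8 to 12 weeks, with no allele or transgene named, and CD3+ cells were taken from the spleen by magnetic sorting after 11 days. The untreated group (NT, n = 7) received nothing. The group PS (n = 4) received empty polymersomes under the skin, which are vesicles of the polymer PEG-b-PPS, at the polymer dose and volume of the loaded ones. The group R (n = 6) received rapamycin in 0.2% CMC (carboxymethylcellulose) under the skin, RO (n = 6) received Rapamune by gavage, and rPS (n = 5) received rapamycin-loaded polymersomes under the skin of the neck scruff, as R did, with about 7.5 mg/ml polymer. Rapamycin, an inhibitor of the kinase mTOR, was given at 1 mg/kg in each of these 3 groups, and dosed groups received 11 doses. No group received CMC alone, and NT mice were not injected.

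A V segment is the germline exon that encodes most of the antigen-binding domain of an antibody chain. In developing B cells 1 heavy V segment is joined to a D and a J segment, and 1 kappa or lambda V segment is joined to a J segment, so each B cell clone transcribes mainly its own pair. Plasma cells, the antibody-secreting stage of the B lineage, carry far more immunoglobulin RNA per cell than resting B cells. T cells rearrange T cell receptor genes and are not known for making antibody, so V segment RNA in a sorted T cell sample is usually read with the B lineage genes beside it.

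Sequences are shown first for pairs of near copies among the light chain segments with most counts. Iglv1 and Iglv2 are on the minus strand of chromosome 16, and Igkv1-117 and Igkv1-110 are on the plus strand of chromosome 6. The lines below give the last 240 coding bases up to the conserved cysteine codon, in exon 2 of 2, 5′ to 3′, from GENCODE M21 transcripts (GRCm38). Capitals mark the bases at which the pair differ. Within each pair 6 of 240 bases differed (97.5% identity), which changed 6 codons to another amino acid in the lambda pair and 3 in the kappa pair. The longest identical stretch was 104 bases in the lambda pair and 142 in the kappa pair, so short reads there could have been assigned to either gene.
Iglv1: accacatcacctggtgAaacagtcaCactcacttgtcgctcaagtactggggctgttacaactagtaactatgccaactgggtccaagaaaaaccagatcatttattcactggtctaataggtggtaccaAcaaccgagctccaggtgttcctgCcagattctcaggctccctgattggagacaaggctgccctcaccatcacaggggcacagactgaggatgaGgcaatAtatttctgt
Iglv2: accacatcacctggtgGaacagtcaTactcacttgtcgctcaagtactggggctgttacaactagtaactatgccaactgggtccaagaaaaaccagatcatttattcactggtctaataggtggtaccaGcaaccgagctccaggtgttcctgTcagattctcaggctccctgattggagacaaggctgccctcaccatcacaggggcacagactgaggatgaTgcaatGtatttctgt
Igkv1-117: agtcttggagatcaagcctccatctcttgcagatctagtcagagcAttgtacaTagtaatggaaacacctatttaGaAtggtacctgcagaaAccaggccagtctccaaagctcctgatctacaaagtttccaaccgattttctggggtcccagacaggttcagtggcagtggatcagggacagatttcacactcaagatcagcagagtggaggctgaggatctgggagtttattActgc
Igkv1-110: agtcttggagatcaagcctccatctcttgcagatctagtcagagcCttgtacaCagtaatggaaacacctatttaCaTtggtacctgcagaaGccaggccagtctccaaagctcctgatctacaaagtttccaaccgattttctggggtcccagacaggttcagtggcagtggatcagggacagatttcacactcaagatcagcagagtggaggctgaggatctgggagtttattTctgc

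The next lines give the last 150 coding bases of 4 segments with distinct patterns: Igkv12-46 had the smallest p of any member against NT in both injected rapamycin groups, Ighv1-80 and Igkv4-55 stood apart in 1 library, and Ighv8-5 ranked first by p in rPS against R. Ighv1-80 and Ighv8-5 are on the minus strand of chromosome 12, and Igkv12-46 and Igkv4-55 are on the minus strand of chromosome 6. Capitals mark the codons for tyrosine, tyrosine or phenylalanine, and cysteine that close framework 3. The third complementarity-determining region follows, to which the joined segments also contribute, D and J in heavy chains and J in kappa chains. Of the 182 members with a coding sequence in the annotation, 177 carried these codons in their last 60 coding bases.
Igkv12-46: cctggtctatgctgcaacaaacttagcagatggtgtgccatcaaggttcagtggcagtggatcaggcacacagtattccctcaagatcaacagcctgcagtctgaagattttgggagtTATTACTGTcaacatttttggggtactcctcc
Ighv1-80: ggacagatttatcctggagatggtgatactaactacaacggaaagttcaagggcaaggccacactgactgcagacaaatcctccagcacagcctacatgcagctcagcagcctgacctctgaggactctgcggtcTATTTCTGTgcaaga
Igkv4-55: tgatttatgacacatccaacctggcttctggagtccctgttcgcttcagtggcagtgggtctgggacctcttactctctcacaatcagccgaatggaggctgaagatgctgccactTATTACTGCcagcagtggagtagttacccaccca
Ighv8-5: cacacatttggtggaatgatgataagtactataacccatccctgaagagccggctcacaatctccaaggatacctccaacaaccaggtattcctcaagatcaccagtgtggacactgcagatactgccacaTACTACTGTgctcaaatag

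Sequence likeness was general among the members. Over their last 280 bases, 98 of the 188 had another member at 95% identity or more, and Ighv1-71 and Ighv1-62-2 were identical there. No source used here gives how reads that match several genes were counted or whether strand was used, so the split of counts within such pairs is uncertain. The members comprised 182 annotated functional V genes and 6 pseudogenes, in 15 heavy and 18 kappa families. Of the 188 members, 134 had a count in each of the 27 libraries that cover all 3 loci, and 30 members held 50% of all V counts.

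Several features of the libraries bear on every value below. One RO library (replicate 7) was truncated, with no count on 11 chromosomes and none for any heavy or lambda V gene, and it was left out of all tests, so RO has n = 5 there. Library totals ran from 4286885 to 15696529 counts. In 6 libraries (replicates 3, 4, 7 and 8 of NT, replicate 3 of R and replicate 3 of RO) the 13 T cell markers averaged below the 10 monocyte and macrophage markers on the log2 scale, against the label of sorted T cells, and these are called T-cell-poor here. Malat1 and mt-Rnr2 were listed at 0 in all 7 NT libraries. Malat1 held 1.57% to 2.78% of the counts of each other library, with RO replicate 7 left out of this range. A difference in how the NT files were made therefore cannot be told apart from the group.

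V segments were most abundant in NT and least abundant in rPS. In CPM (counts scaled to the same total in every library), the summed V level was 3266 ± 1810 (SD, n = 7) in NT, 1311 ± 204 (n = 4) in PS, 1144 ± 153 (n = 6) in R, 1557 ± 636 (n = 5) in RO and 889 ± 480 (n = 5) in rPS. NT libraries ran from 864 CPM to 5790 CPM with a median of 3115. The 4 PS libraries gave 1591, 1203, 1325 and 1126 CPM. R libraries ran from 983 CPM to 1356 CPM with a median of 1118. The groups overlapped, because the lowest NT library (replicate 6, 864 CPM) lay below every PS, R and RO library. The 5 RO libraries gave 1422, 2541, 1052, 987 and 1781 CPM (replicates 1, 3, 4, 5 and 6), and the 5 rPS libraries gave 1362, 1343, 742, 212 and 788 CPM (replicates 1, 2, 4, 5 and 7). The lowest, rPS replicate 5, held 1634 V counts, and it also had the lowest summed level of the 20 B cell identity genes (979 CPM). In bulk samples, fewer B lineage cells and less V RNA per cell cannot be told apart.

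The highest V levels stood in the T-cell-poor libraries. Over all groups these 6 had a summed V level of 1356 to 5790 CPM, and the other 21 had 212 to 2171 CPM. Without them the NT level was 1579 ± 662 CPM (n = 3), the R level 1102 ± 125 CPM (n = 5) and the RO level 1310 ± 368 CPM (n = 4). The part of other cells in the NT level was not tested.

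**Figure D1:**
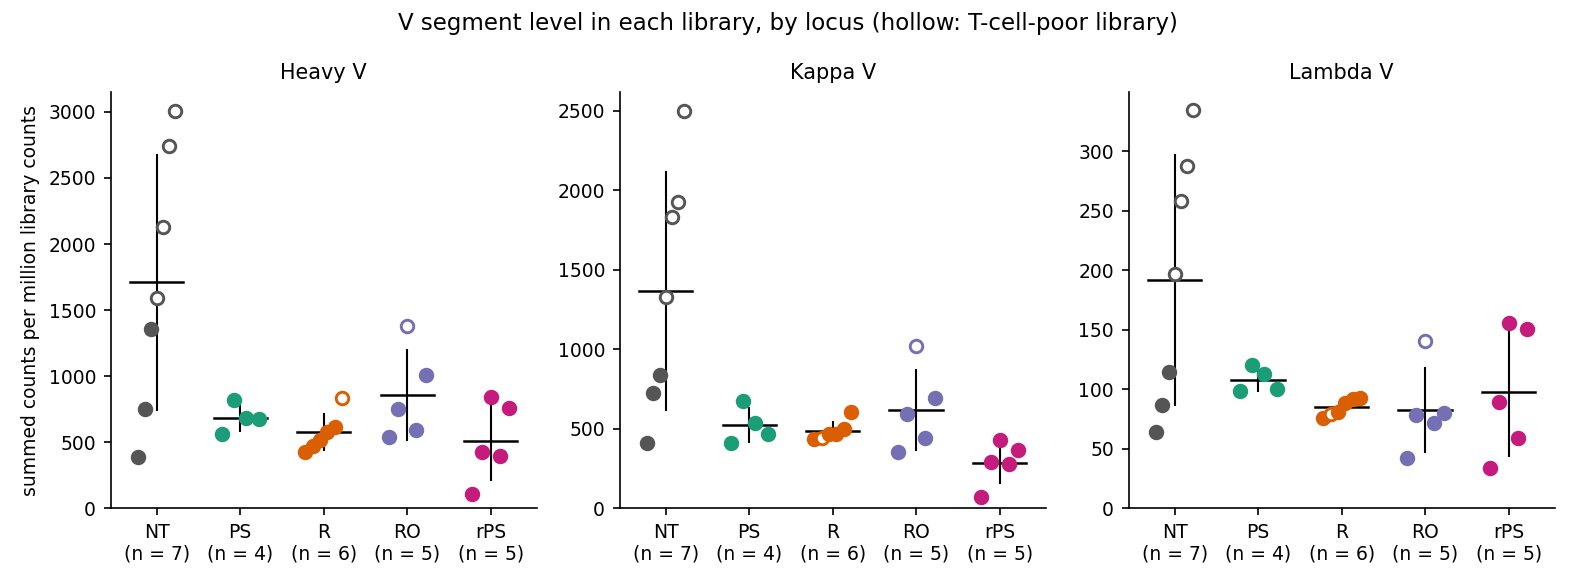
Summed CPM of the heavy, kappa and lambda V segments in each library (points), by group (horizontal axis), with the group mean (line) and 1 SD either way (bar, stopped at 0). Hollow points are the T-cell-poor libraries, which include the 4 highest NT libraries in every panel, and RO replicate 7 is left out.

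Each locus had a lower mean in rPS than in NT. Heavy V levels were 1709 ± 976 CPM (SD, n = 7) in NT and 506 ± 298 CPM (n = 5) in rPS. Kappa V levels were 1365 ± 755 CPM in NT and 286 ± 136 CPM in rPS. Lambda V levels were 192 ± 106 CPM in NT and 97.6 ± 54.2 CPM in rPS. As a share of all V counts, kappa was 33.4% to 49.2% in NT and 27% to 38.9% in rPS, which overlapped. The lambda share was 4% to 7.40% in NT and 7.95% to 16% in rPS, with every rPS library above every NT library. It was 6.31%, 9.98%, 8.51% and 8.77% in the PS libraries, 5.82% to 9.03% in R and 4.29% to 6.77% in RO. PS and R overlapped both NT and rPS.

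In rPS against NT, 129 of the 174 tested members were lower and 0 were higher, by edgeR's quasi-likelihood test with a Benjamini-Hochberg adjusted p under 0.05 over all 17132 genes tested. Of all genes tested, 10.9% were called lower in this comparison, 10.6% higher and 21.5% in either direction. The other 14 members did not pass the low-count filter. The summed count that chose the members and this filter use the same counts, in which NT libraries with high V levels weigh heavily. That favours members high in NT, so the number of members lower than NT is a description. The same holds for R, RO and PS against NT. The median log2 fold change of the tested members was -2.14, against -0.01 over all genes, and 167 of the 174 had a negative value. By locus, 58 of 93 heavy, 69 of 78 kappa and 2 of 3 lambda segments were lower. In 29 members every rPS library lay below every NT library, against 1.92% of all genes tested. Without the 6 T-cell-poor libraries, a setting added after the data were seen, 23 members were lower and 2 higher of 164 tested, with a median of -1.02, where 2.3% of all genes were called lower and 0.888% higher.

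Igkv12-46, a kappa segment, had the smallest p. Its level ran from 9.87 CPM to 53.8 CPM in NT with a median of 21.6, and was 2.81, 3, 2.33, 0.906 and 3.51 CPM in the rPS libraries. Every rPS library lay below every NT library, and the segment fell by 3.39 ± 0.46 (standard error) on the log2 scale (edgeR adjusted p = 0.00011). Ighv2-9-1, a heavy segment, ran from 3.67 CPM to 34 CPM in NT (median 15.2) and was 0.748, 2.44, 2.1, 1.04 and 1.17 CPM in rPS. It also showed no overlap, and fell by 3.59 ± 0.51 (edgeR adjusted p = 0.00017). Igkv8-24 ran from 3.67 CPM to 62.5 CPM in NT (median 28) and was 1.87, 2.78, 1.4, 1.04 and 2.34 CPM in rPS. It fell by 3.99 ± 0.57 (edgeR adjusted p = 0.000191), again with no overlap. Igkv6-32 fell by 2.49 ± 0.40 and Ighv3-6 by 2.65 ± 0.43. All 5 remained called without the T-cell-poor libraries, with log2 fold changes of -2.85, -2.44, -2.31, -1.53 and -1.32 in that order.

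Among the most abundant segments the fall was uneven. They were ranked by the count summed over all files, in which NT libraries with high V levels weigh heavily. That ranking favours segments high in NT, so the number that fell is a description. Igkv1-117, the member with the most counts (17194 over all files), ran from 31.3 CPM to 295 CPM in NT (median 144) and was 54.4, 53.7, 43.9, 10.6 and 49.1 CPM in rPS. These ranges overlapped at the low end of NT, and the segment fell by 1.74 ± 0.46 (edgeR adjusted p = 0.0118). Igkv1-110 fell by 1.82 ± 0.50, and Igkv1-135 by 1.95 ± 0.40. Igkv4-55 ran from 8.86 CPM to 437 CPM in NT (median 42.4) and was 7.11, 1.22, 5.83, 0.906 and 1.95 CPM in rPS. It fell by 4.92 ± 0.92 (edgeR adjusted p = 0.00162), the furthest of any tested member, with no overlap. Igkv3-4 fell by 3.32 ± 0.89 and Igkv5-39 by 2.97 ± 0.66. Without NT replicate 8 Igkv4-55 was at -3.58 and Igkv3-4 at -2.17, and without NT replicate 4 Igkv5-39 was at -2.04, all still called.

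Of the 6 most abundant heavy segments, ranked by the same summed count, 5 fell. Ighv1-80, the most abundant, ran from 15.9 CPM to 607 CPM in NT (median 105) and was 34, 12.8, 26.6, 1.17 and 16.4 CPM in rPS. It fell by 3.16 ± 0.76 (edgeR adjusted p = 0.00712), and by 2.18 without NT replicate 8, which held the value of 607 CPM. Ighv1-26 fell by 2.14 ± 0.52, Ighv1-53 by 2.65 ± 0.51, Ighv5-17 by 2.15 ± 0.72 and Ighv6-3 by 1.47 ± 0.52. Ighv5-17 was at -0.90 and no longer called without NT replicate 4, and its call was also lost without rPS replicate 4, 5 or 7. The call of Ighv6-3 was lost on leaving out any 1 of NT replicates 3, 4, 7 or 8 or of rPS replicates 4, 5 or 7, with -1.17 without NT replicate 4. Ighv4-1 had a log2 fold change of -2.04 ± 0.76 and did not pass (edgeR adjusted p = 0.0562), but did on leaving out any 1 of NT replicates 2, 5 or 6 or of rPS replicates 1 or 2.

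The lambda segments diverged from each other. Iglv1 ran from 42.2 CPM to 258 CPM in NT (median 122) and was 53.7, 74.0, 19.8, 16.3 and 37.2 CPM in rPS. It fell by 1.81 ± 0.47 (edgeR adjusted p = 0.0106). Iglv2 ran from 12.2 CPM to 67.4 CPM in NT (median 50.4) and was 88.7, 70.9, 19.6, 14.6 and 40.9 CPM in rPS. Its log2 fold change was 0.11, with either sign on leaving out 1 library, and the groups overlapped throughout. Iglv3 fell by 0.95 ± 0.34 (edgeR adjusted p = 0.0487), a call lost on leaving out any 1 of NT replicates 3, 4, 7 or 8 or of rPS replicates 1, 2, 5 or 7 (-0.68 without rPS replicate 5). The Iglv1 and Iglv2 sequences printed above differ at 6 bases, and how their shared reads were split was not tested.

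The called members came from most families. All 7 tested members of Igkv1, all 5 of Igkv12, all 4 of Igkv5 and 17 of 20 of Igkv4 were lower in rPS than in NT. In the largest heavy family, Ighv1, 36 of 45 tested members were lower, with a median log2 fold change of -2.05. In Ighv5 it was 3 of 9, in Ighv7 0 of 3, in Ighv10 0 of 2 and in Ighv11 0 of 2. Ighv11 and Ighv12 segments are known from B-1 cells, innate-like B cells that make natural antibody. The single Ighv12 member, Ighv12-3, fell by 4.67 ± 0.97, but 61.6% of its counts were in NT replicate 4, where it reached 66.6 CPM. Family differences were not tested.

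Rapamycin injected in CMC was compared with NT next. In R against NT, 15 of 174 tested members were lower and 0 higher, where 0.607% of all genes tested were called lower and 0.0584% higher, and the members' median log2 fold change was -1.40. Igkv12-46 again had the smallest p. Its R libraries ran from 2.92 CPM to 6.59 CPM (median 4.34), all below the NT minimum of 9.87 CPM, and it fell by 2.52 ± 0.40 (edgeR adjusted p = 0.00258). Igkv5-39 ran from 1.91 CPM to 5.26 CPM in R (median 4.50) against 12.1 CPM to 168 CPM in NT (median 24.7). It fell by 3.64 ± 0.64 (edgeR adjusted p = 0.00781), with no overlap. Ighv2-9-1 fell by 2.26 ± 0.42, Ighv1-78 by 2.91 ± 0.55 and Igkv4-55 by 3.86 ± 0.79. The call of Igkv4-55 was lost without R replicate 5, 6 or 7 or NT replicate 8 (-2.52), and that of Ighv1-78 without R replicate 6. In 4 members every R library lay below every NT library, against 0.467% of all genes. Scaled to the summed V counts, edgeR called 0 members in this comparison, where it called 0.263% of all genes.

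The count in R moved with nearly every library. Leaving out NT replicates 3, 4, 5, 6 and 8 in turn gave 7, 8, 49, 47 and 5 members. Leaving out R replicates 2 to 7 in turn gave 7, 37, 6, 4, 3 and 5. The share of all genes called in these left-out fits is not given here. Whether calls moved over all genes alike was not tested. Without the T-cell-poor libraries 3 members stayed called, where 0.206% of all genes were called lower. These were Igkv12-46, Igkv5-39 and Ighv1-78.

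Oral rapamycin gave 0 called members in RO against NT by edgeR, where 0.0117% of all genes tested were called in either direction. At an unadjusted p under 0.05, 93 members were lower and 0 higher, where 6.37% of all genes were lower and 6.34% higher. DESeq2 called 22 members lower, where it called 0.777% of all genes lower. The median log2 fold change was -1.12. The smallest p belonged to Igkv8-24 at -2.35 ± 0.50, Ighv3-1 at -2.46 ± 0.58 and Igkv4-53 at -2.31 ± 0.54, with edgeR adjusted p of 0.143, 0.154 and 0.154. Igkv8-24 was 6.78, 5.44, 5.28, 3.09 and 9.17 CPM in the RO libraries, which overlapped the lower end of the NT range. In 0 members did every RO library lie below every NT library, against 0.257% of all genes. Leaving out NT replicate 5 gave 13 called members, and leaving out NT replicate 6 gave 7, with the share of all genes in these fits not given here.

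Empty polymersomes carry no drug. In PS against NT, 31 of 174 tested members were lower and 0 higher, where 2.46% of all genes tested were called lower and 2.5% higher, and the members' median log2 fold change was -1.49. Igkv8-24 was 3.49, 6.07, 8.42 and 3.54 CPM in PS against 3.67 CPM to 62.5 CPM in NT. It fell by 2.55 ± 0.56 (edgeR adjusted p = 0.034), and the ranges overlapped. Ighv2-9-1 fell by 2.26 ± 0.50, Igkv4-86 by 3.57 ± 0.79, Ighv1-58 by 3.04 ± 0.71 and Igkv6-14 by 3.42 ± 0.84. In 11 members every PS library lay below every NT library, against 2.91% of all genes. The count of 31 called members was the least stable. It was 0 without any 1 of NT replicates 3, 4, 7 or 8 or of PS replicates 1, 3, 4 or 5. Leaving out NT replicates 5 and 6 in turn gave 66 and 79. For these left-out fits the share of all genes called is not given here. Without the T-cell-poor libraries it was 0, where only 0.0118% of all genes tested were called in either direction.

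Markers of other cells moved with these comparisons. In rPS against NT, 8 of 8 neutrophil markers and 5 of 10 monocyte and macrophage markers were lower, where 10.9% of all genes were. Of the 13 T cell markers 0 were called, with a median log2 fold change of 0.49 and a negative value in 1. The summed monocyte and macrophage markers spanned 534 to 7341 CPM (NT), 122 to 1531 CPM (rPS), 564 to 922 CPM (PS), 1001 to 5577 CPM (R) and 524 to 6417 CPM (RO). The summed neutrophil markers spanned 13.4 to 2948 CPM (NT), 4.79 to 46 CPM (rPS), 25.4 to 44.3 CPM (PS), 38.2 to 1219 CPM (R) and 13.6 to 355 CPM (RO). The summed T cell markers spanned 289 to 4029 CPM (NT), 1383 to 3423 CPM (rPS), 2296 to 3124 CPM (PS), 165 to 2015 CPM (R) and 605 to 2879 CPM (RO). Neutrophil markers were also lower in PS against NT (3 of 8), with 1 of 10 monocyte and macrophage markers, where 2.46% of all genes were called lower. Neutrophil markers had median log2 fold changes of -2.02 in R and -3.14 in RO against NT, where edgeR called none of them. Ly6g and Elane were at 0 in 8 and 5 of the 27 libraries, Ms4a7 was at 0 in 1, and no T cell marker was at 0. Their part in the V segment differences was not tested.

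**Figure D2:**
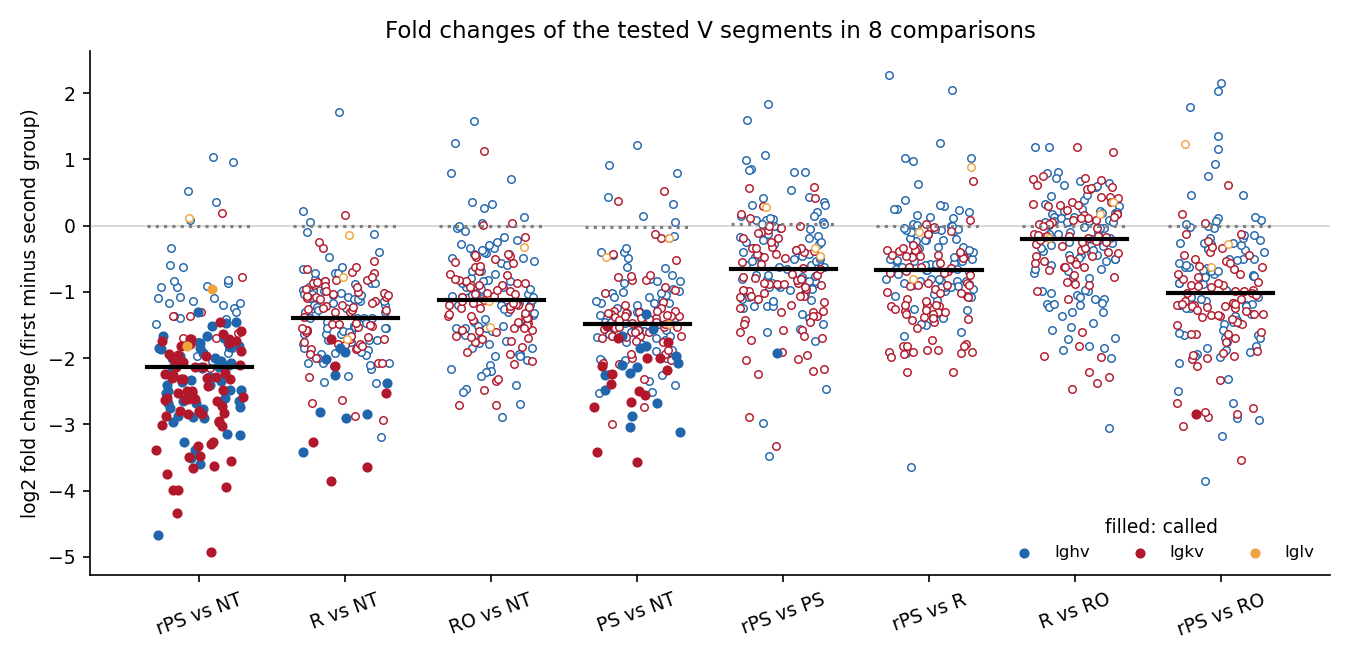
Log2 fold change of each of the 174 tested V segments (points) in 8 comparisons (horizontal axis), coloured by locus, with filled points for members called by edgeR at an adjusted p under 0.05. Black lines are the members' medians, which run from -2.14 in rPS against NT to -0.19 in R against RO, and dotted grey lines are the medians of all genes tested.

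Between the treated groups almost no member passed. In rPS against PS, which differ by the drug, 1 of 174 members was lower, where 0.07% of all genes tested were called lower, with a median log2 fold change of -0.65. That member, Ighv2-6, was 8.31, 4.89, 11.2 and 4.33 CPM in PS and 1.5, 2.33, 2.1, 0.647 and 2.53 CPM in rPS, with no overlap. It fell by 1.92 ± 0.38 (edgeR adjusted p = 0.0470), and Ighv2-6 did not fall in PS against NT (0.15 ± 0.34). The call of Ighv2-6 was lost on leaving out any 1 of PS replicates 1, 3 or 4 or of the 5 rPS libraries, and without PS replicate 5 the count of called members was 3. In 22 members every rPS library lay below every PS library, against 2.57% of all genes. At an unadjusted p under 0.05, 33 members were lower and 2 higher, where 2.67% of all genes were lower and 2.3% higher.

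In rPS against R, which differ by the carrier, 0 members were called by edgeR, where 0.0117% of all genes were. The median log2 fold change was -0.67, and 38 members were lower and 3 higher at an unadjusted p under 0.05, where 5.25% of all genes were lower and 5.8% higher. DESeq2 called 2 members higher, where it called 0.274% of all genes higher. The smallest p belonged to Ighv8-5, a heavy segment. It was 23.8, 17.2, 13.5, 9.84 and 19.7 CPM in rPS, and 1.70 CPM to 8.97 CPM (median 2.40) in R, so that every rPS library lay above every R library, which 0.619% of all genes showed. Its log2 fold change was 2.28 ± 0.60 (edgeR adjusted p = 0.203). Igkv14-100 was at -1.90 ± 0.51 and Ighv1-34 at 2.05 ± 0.55, both with an edgeR adjusted p of 0.208. Ighv1-34 was at 1.29 without rPS replicate 1. In 10 members every rPS library lay below every R library, against 0.368% of all genes.

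In R against RO, the same drug by 2 routes, edgeR called 0 members and 0% of all genes. The median log2 fold change was -0.19, with 26 members lower and 0 higher at an unadjusted p under 0.05, where 1.56% of all genes were lower and 1.38% higher. DESeq2 called 1 member lower, where it called 0.0584% of all genes lower. Igkv12-46 had the smallest p, at -1.98 ± 0.41 (edgeR adjusted p = 0.179), with 27.7, 12.6, 4.86, 19.2 and 26.6 CPM in RO. Igkv4-70 was at -2.47 ± 0.71. Ighv5-12 was at -3.05 ± 0.88, and at 0.28 without RO replicate 3, the library with 62.1% of its counts. In 2 members every R library lay below every RO library, against 0.444% of all genes.

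In rPS against RO, 1 of 174 members was lower, where 0.0175% of all genes tested were called lower, with a median log2 fold change of -1.01. This was Igkv12-46, which fell by 2.84 ± 0.47 (edgeR adjusted p = 0.0123), with every rPS library (0.906 to 3.51 CPM) below every RO library (4.86 to 27.7 CPM). In 14 members every rPS library lay below every RO library and in 2 above, against 0.986% and 0.356% of all genes. The call for Igkv12-46 was lost without RO replicate 1 or 6 or rPS replicate 4 or 5. For the same segment, PS against NT gave -1.15 ± 0.43 (edgeR adjusted p = 0.0811) and RO against NT gave -0.55 ± 0.39 (edgeR adjusted p = 0.55).

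The makeup of the V counts is described next, with no test. Igkv12-46 held 0.809% to 3.26% of kappa V counts in NT, 1.17% to 3.78% in PS and 1.10% to 5.42% in RO, against 0.623% to 1.2% in R and 0.701% to 1.31% in rPS. Igkv1-117 held 12.6% to 17.8% of kappa V counts in rPS, above all NT libraries (6% to 11.8%) and all PS libraries (7.13% to 10.7%). R (9.61% to 13.7%) and RO (6.96% to 14.0%) overlapped rPS. Its near copy Igkv1-110 held 6.36% to 12.0% in rPS and 3.46% to 9.34% in NT. PS replicate 1 stood apart with 22.2%.

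Within lambda, Iglv2 held 17.3% to 28% in NT (median 19.5%), and 22.6%, 25.2%, 23.4%, 24% and 19.8% in the RO libraries. It held 37.2%, 36%, 35.4% and 40.1% in PS, and 59.0%, 45.6%, 33.2%, 43.1% and 45.9% in rPS. Every library of both polymersome groups lay above every NT and RO library. R spanned the gap, at 19.2% to 32% in 5 libraries and 42.5% in the T-cell-poor replicate 3. The share of Iglv1 ran the other way, at 49.5% to 77.0% in NT and 33.6% to 48.1% in rPS. Without the T-cell-poor libraries the Iglv2 share in NT was 18.4% to 28%.

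**Figure D3:**
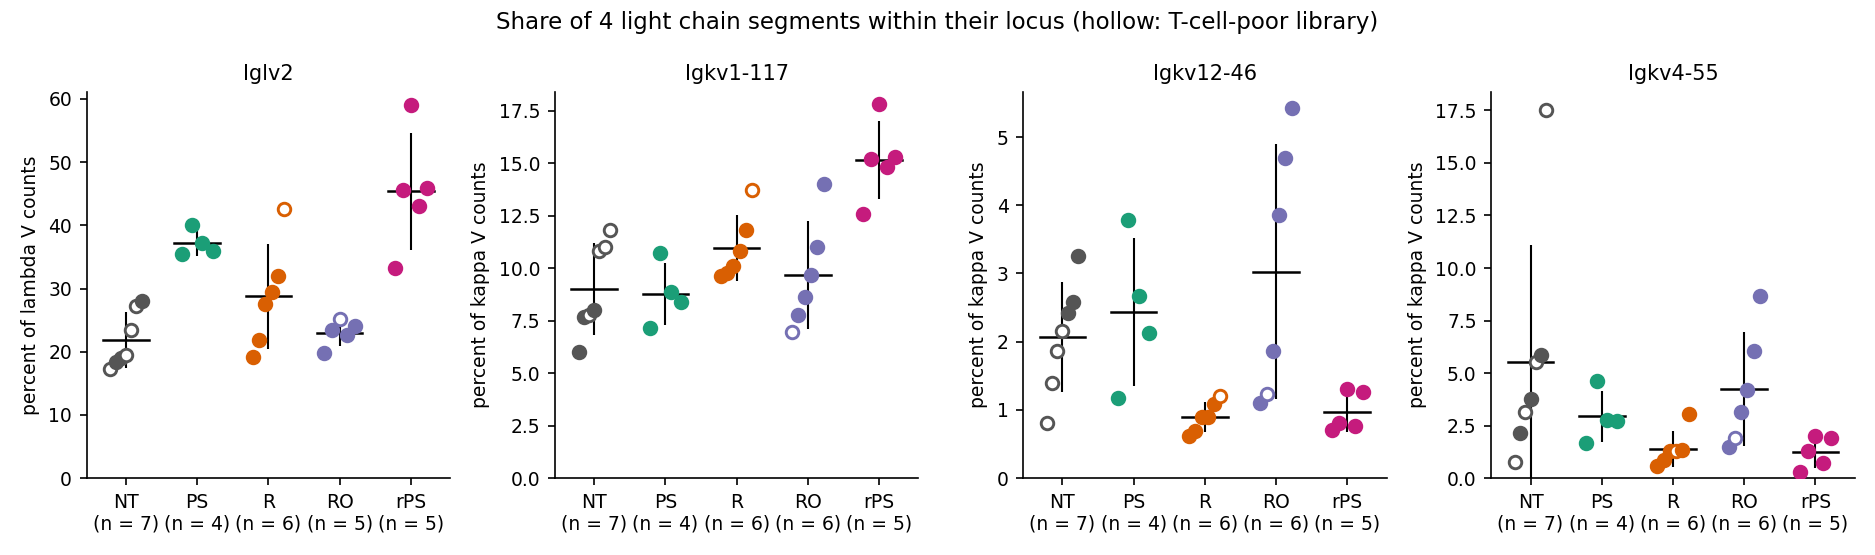
Share of Iglv2 within lambda V counts and of Igkv1-117, Igkv12-46 and Igkv4-55 within kappa V counts (vertical axes, percent), in each library by group, with the mean (line) and 1 SD (bar, stopped at 0). Every PS and rPS library is above every NT and RO library for Iglv2, and the R and rPS libraries stay at or below 1.31% for Igkv12-46.

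Scaling each library to its own V counts describes segments relative to the other V segments. It moves the median of all genes in rPS against NT from -0.01 to 1.95, so a rise on this scale is relative. It called 83.6% of all genes higher in that comparison and 0.403% lower, which leaves the adjusted p close to the unadjusted one. In rPS against NT this gave 18 members lower and 10 higher. Relative to other V segments Ighv8-5 rose by 3.38 ± 0.53 (edgeR adjusted p = 5.25e-05), Ighv3-8 by 3.35 ± 0.52, Iglv2 by 2.04 ± 0.37 and Ighv1-34 by 2.09 ± 0.50. Igkv4-55 fell by 2.53 ± 0.64, Igkv8-24 by 1.77 ± 0.53, Igkv12-46 by 1.47 ± 0.49 and Ighv2-9-1 by 1.4 ± 0.54. Igkv1-117, Igkv1-110, Iglv1 and Iglv3, which were lower per library, had positive values on this scale, of 0.41, 0.16, 0.28 and 0.94. The first 8 were picked from the 28 after their values were seen. Empty polymersomes showed the Ighv8-5 rise too. In PS against NT this scale called 2 members, both higher, where 0.344% of all genes were called higher. They were Ighv8-5 at 2.51 ± 0.54 (edgeR adjusted p = 0.0286) and Ighv1-42 at 2.37 ± 0.49. In rPS against PS it called 0 members and 0% of all genes. Per library count Ighv8-5 was 1.34 CPM to 17.5 CPM in NT (median 8.12) and its log2 fold change in rPS was 0.96 ± 0.55 (edgeR adjusted p = 0.197). Without the T-cell-poor libraries Ighv8-5 and Ighv3-8 were the 2 members called higher in rPS, at 2.64 ± 0.65 and 2.53 ± 0.60.

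Single segments held a large share of some libraries. Intervals are exact 95% binomial ones and cover counting error only. In NT replicate 8 Ighv1-80 held 20.2% of heavy V counts (19.5% to 20.8%, 3043 counts), against a median of 4.04% in the other libraries, and Igkv4-55 held 17.5% of kappa V counts (16.8% to 18.2%), against a median of 2.02%. Igkv8-19 held 13.8% of kappa and Ighv5-12 7.50% of heavy counts in RO replicate 3, where no other library exceeded 2.69% and 1.06%. Ighv1-9 held 13.5% of heavy counts in RO replicate 5. Igkv4-63 held 8.21% of kappa counts in NT replicate 5, where no other library exceeded 0.99%. In rPS, Ighv10-3 held 9.79% of heavy counts in replicate 1, and Ighv8-5 held 9.08% (7.22% to 11.2%) in replicate 5, from 76 counts. Such libraries occurred in all 5 groups, with Igkv3-4 at 12.1% in PS replicate 1 and Ighv4-1 at 10.7% in R replicate 3.

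**Figure D4:**
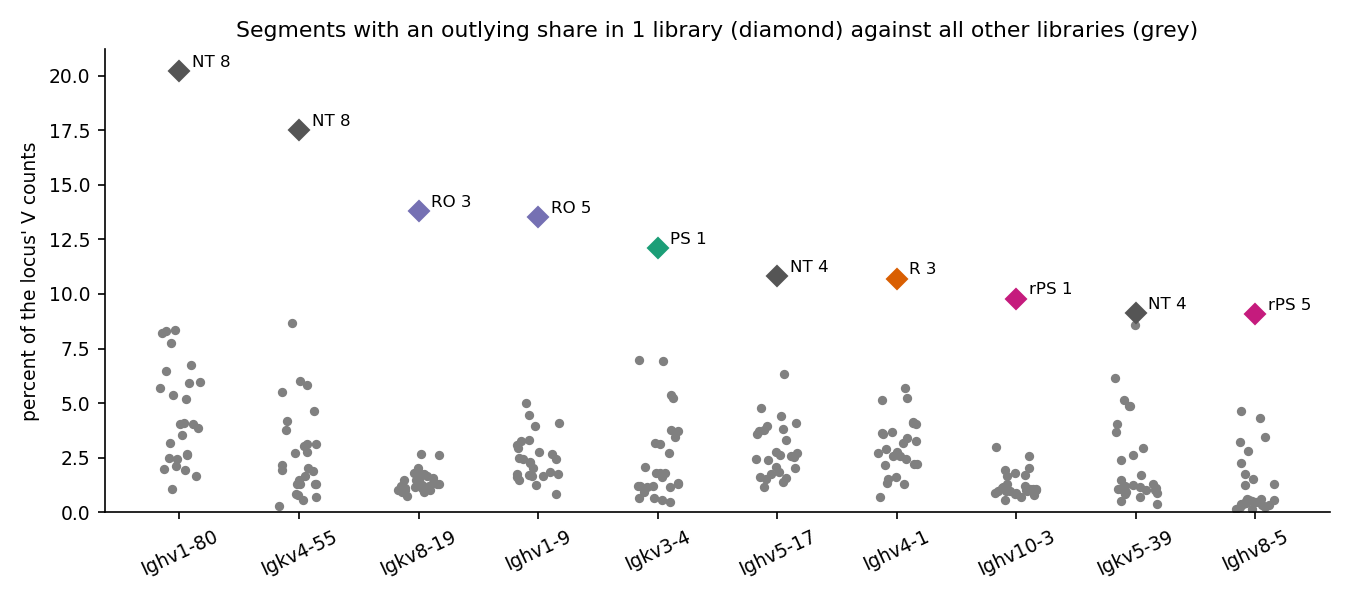
Percent of the V counts of its locus held by 10 segments (horizontal axis) in the library where the share is highest (diamond, labelled by group and replicate) and in all other libraries (grey points). Ighv1-80 in NT replicate 8 reaches 20.2%, and the diamonds include libraries of all 5 groups.

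Diversity was summarised by the effective number of segments, the inverse of the summed squared shares, which falls when few segments dominate. The heavy value was 37.6 ± 12.0 (SD, n = 7) in NT, 43.0 ± 5.46 in PS (n = 4), 46.4 ± 8.19 in R (n = 6), 35.8 ± 10.8 in RO (n = 5) and 38.4 ± 6.44 in rPS (n = 5). The kappa value was 29.4 ± 7.99 in NT and 20.1 ± 2.43 in rPS, with overlapping ranges of 16.6 to 38.4 and 17.7 to 23.9. At a common depth of 1634 V counts, NT libraries held 152 to 169 of the 188 members and rPS libraries 147 to 164. The ranges overlapped.

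Constant region genes encode the antibody class and are transcribed with the joined V segment. In rPS against NT 9 of 12 tested constant region genes were lower and 0 higher, where 10.9% of all genes were called lower. Their median log2 fold change was -2.17. Igkc, the kappa constant region, ran from 733 CPM to 4160 CPM in NT and from 108 CPM to 809 CPM in rPS. It fell by 2.48 ± 0.45 (edgeR adjusted p = 0.0012), and Ighm, the IgM heavy chain, by 1.71 ± 0.37. The class-switched Ighg2c fell by 5.41 ± 0.87 and Ighg2b by 4.39 ± 0.80. Iglc2 had a log2 fold change of -0.67 ± 0.26 and did not pass (edgeR adjusted p = 0.0656). Without the T-cell-poor libraries 4 of 12 were lower, where 2.3% of all genes were. Per 100 Igkc counts there were 54.0 to 71.1 kappa V counts in NT and 35.7 to 103 in rPS, where 35.7 was replicate 4 and the next lowest was 63.8. There were 67.3 to 80.5 in PS, 67.7 to 86.3 in R and 66.2 to 83.6 in RO. All of these ranges overlapped NT, and the difference was not tested.

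Other B lineage genes were counted by list, and the difference between lists was not tested. Of all genes tested, 10.9% were called lower in rPS against NT. Of the 20 plasma cell and secretion genes 16 were lower in rPS than in NT, with a median log2 fold change of -1.19. Jchain, which joins IgM and IgA units, fell by 2.18 ± 0.46 (edgeR adjusted p = 0.00342), and Xbp1, a transcription factor of secretory cells, by 1.61 ± 0.43. Eaf2 fell by 2.39 ± 0.40, the secretory-pathway enzyme Txndc5 by 1.27 ± 0.22, and Ell2, an elongation factor, by 1.54 ± 0.30. Of the 20 B cell identity genes 4 were lower, with a median of -0.40, among them Ms4a1 (CD20) at -1.25 ± 0.36. Cd79a, part of the B cell receptor, was at 262 ± 30.4 CPM in NT and 192 ± 133 CPM in rPS and was not called. Of 8 germinal centre genes 5 were lower, with Mybl1 falling by 2.27 ± 0.36. The B cell identity count was 2 without NT replicate 7, rPS replicate 1 or rPS replicate 7, and the germinal centre count was 3 without rPS replicate 7. Without the T-cell-poor libraries the counts were 5 of 19 plasma cell, 0 of 20 B cell identity and 3 of 8 germinal centre genes. In that fit 2.3% of all genes were called lower and 0.888% higher.

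In R against NT, 6 of 12 constant region, 5 of 20 plasma cell, 0 of 20 B cell identity and 1 of 8 germinal centre genes were lower. Of all genes tested, 0.607% were. Ighg1 fell by 3.96 ± 0.71, Ighg2c by 4.11 ± 0.74, Jchain by 2.02 ± 0.43 and Mybl1 by 2.14 ± 0.33. In PS against NT, 3 of 12 constant region, 2 of 20 plasma cell and 1 of 8 germinal centre genes were lower, where 2.46% of all genes were. Among them Igkc fell by 1.84 ± 0.48 and Jchain by 1.70 ± 0.49. In RO against NT edgeR called 0 genes of these lists, where 0.0117% of all genes were called in either direction. At an unadjusted p under 0.05, 9 constant region, 9 plasma cell, 0 B cell identity and 2 germinal centre genes were lower, where 6.37% of all genes were. DESeq2 called 5 constant region genes lower and 0 of the others, where it called 0.777% of all genes lower. In rPS against PS edgeR called 1 gene of these lists, Mybl1, which fell by 2.28 ± 0.39, where 0.07% of all genes were called lower. Rag1, Rag2, Vpreb1, Vpreb2 and Igll1, genes of developing B cells, were at 0 in 10, 24, 9, 27 and 23 of 27 libraries. Dntt, the other gene of this list of 6, was the only 1 to pass the low-count filter. Its log2 fold change in rPS against NT was 0.07, and it was not called.

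V counts were also set against the B cell genes of the same library. The ratio of summed V CPM to the summed CPM of the 20 B cell identity genes spanned 0.244 to 1.42 (NT), 0.0984 to 0.532 (rPS), 0.176 to 0.298 (PS), 0.118 to 0.536 (R) and 0.18 to 0.857 (RO). The T-cell-poor libraries held the 4 highest NT ratios and the highest R and RO ratios (0.536 and 0.857). Without them NT ran from 0.244 to 0.433, R from 0.118 to 0.206 and RO from 0.180 to 0.261. With the B cell identity list as a covariate in the fit, 120 members were lower than NT in rPS, 25 in R and 51 in PS, where 16.1%, 0.905% and 6.53% of all genes were.

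**Figure D5:**
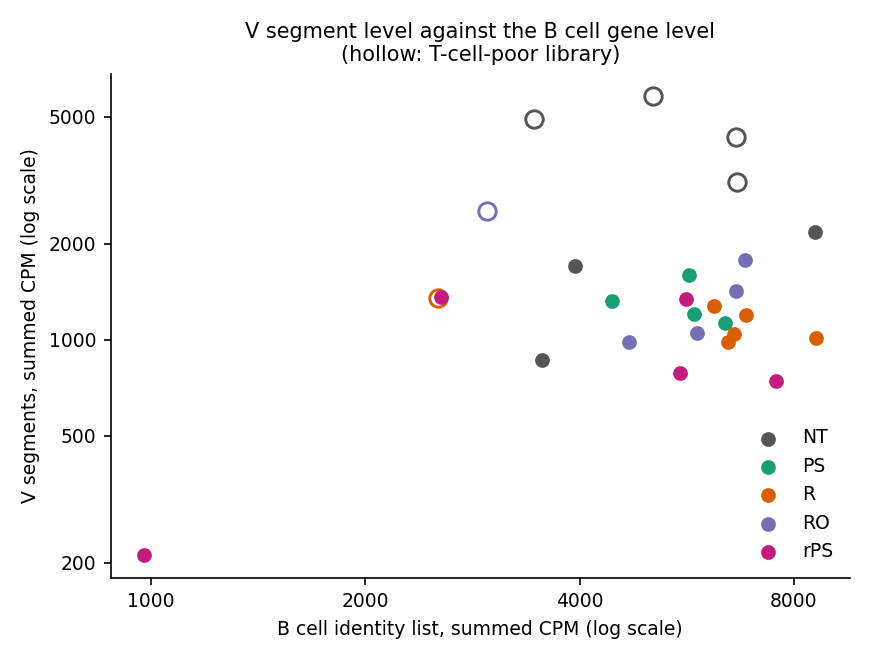
Summed V segment CPM (vertical axis, log scale) against the summed CPM of 20 B cell identity genes (horizontal axis, log scale), 1 point per library, coloured by group. The hollow T-cell-poor NT libraries (3115 to 5790 CPM of V segments) lie above the other libraries at similar B cell gene levels, and rPS replicate 5 is lowest on both axes.

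Calls were counted with and without near copies. In rPS against NT 72 of 94 tested members with a copy of at least 95% identity and 57 of 80 others were lower, with median log2 fold changes of -2.15 and -2.10. The 6 pseudogene members held 0.179% to 0.367% of V counts in NT and 0.220% to 0.544% in rPS. In the truncated RO replicate 7, all 84 kappa members had counts, and Igkv1-110 (7.96%) and Igkv1-117 (7.76%) led the locus. Over the chromosomes that it covers, its summed kappa level was 1124 CPM, against 541 to 1568 CPM in the other RO libraries on the same scale.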

How the data were processed

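RNA of magnetically sorted spleen CD3+ T cells was sequenced, 1 library per mouse, in 28 mice. The authors deposited estimated counts per gene, 1 file per mouse, made from trimmed and aligned reads per the submitters' processing notes, although the series text speaks of single cells. Per the submitters' processing notes Trimmomatic 0.39, STAR 2.7.5a, Cufflinks 2.1.1, Cuffdiff and GRCm39 were used. No source used here gives the counting tool, strand setting, annotation release or treatment of multi-mapped reads. Symbols, chromosomes and sequences came from GENCODE M21 (GRCm38) by Ensembl ID, and no coordinates are printed.

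Counts were rounded and the 5 groups in 27 libraries were fitted together with edgeR 4.0.16 (R 4.3.3): TMM scaling, filterByExpr, robust quasi-likelihood test, Benjamini-Hochberg adjustment over 17132 genes, and calls at an adjusted p under 0.05. RO replicate 7 was left out. Fits were checked on simulated counts. CPM are counts scaled by the library total, without TMM. Each standard error is the log2 fold change over the root of its F. All 8 comparisons were made in this 1 fit; those against NT share the NT libraries. Labels place each sample in its group; p-values measure the spread between mice.

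Alternatives were DESeq2 1.42.0, DESeq2 size factors, no filter, 2-group fits, a replicate block, a B cell covariate, other library sizes, scaling to V counts, and leaving out each library. Leaving out the T-cell-poor libraries was added after seeing the data. Members, gene lists and tests were chosen with earlier results of these data known. Named members are the 6 heavy, 6 kappa and 3 lambda segments with most counts, up to 5 called members per comparison and direction by p with a mean of at least 1 CPM (or the 3 with the smallest p where none was called), segments over 20% of their locus in a library, those beside the count of 100, and from the lists Ighm, Igkc, Iglc2, Jchain, Cd79a, Ms4a1, Xbp1 and up to 3 called genes per list and comparison. Other segments named in the paragraphs on makeup, families and single libraries were chosen after their values were seen. Depth was 4286885 to 15696529 counts per library, with 1634 to 62815 V counts.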

Additional observations from a re-analysis of the deposited data

Results flagged for a closer look

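Over 26 measures in each group, 130 tests in all, Dixon's criterion set a library apart from its group 15 times. The same libraries recur among these. The measures overlap, so the tests are not independent, and the criterion's rate of about 5% per test is no reference for this count. In R replicate 3, a T-cell-poor library, the effective number of heavy segments was 30.3 (next 46.2), and V CPM per B cell list CPM was 0.536 (next 0.206). In the same library Ighv1-80 was 29.5 CPM (next 12.3), Ighv5-17 52.9 CPM (next 24.9), Ighv4-1 88.8 CPM (next 20.9) and Ighv6-3 43.2 CPM (next 21.1). In RO replicate 3, also T-cell-poor, V CPM per B cell list CPM was 0.857 (next 0.261), and Ighv4-1 was 50.4 CPM (next 16.5).

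In NT replicate 8 Ighv1-80 was 607 CPM (next 131), Igkv4-55 437 CPM (next 73.3) and Igkv3-4 174 CPM (next 36.3). In NT replicate 4 Ighv5-17 was 295 CPM (next 49) and Igkv5-39 168 CPM (next 51.4). In rPS replicate 5, the library with the fewest V counts, Igkv1-117 was 10.6 CPM (next 43.9) and Igkv1-110 4.4 CPM (next 30.6).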

How the results depend on the processing

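The count of called V segments in rPS against NT was 68 with only these groups fitted, 28 scaled to the summed V counts, 25 without the T-cell-poor libraries, and 99 to 143 when 1 library was left out. In R against NT it was 8 with no filter, 1 with only these groups, 25 with the B cell covariate, 0 scaled to V counts, 70 by DESeq2, 3 without the T-cell-poor libraries, and 3 to 49 with 1 library left out. In RO against NT it was 22 by DESeq2 and 0 to 13 with 1 library left out. In PS against NT it was 1 with no filter, 51 with the B cell covariate, 20 with library sizes free of immunoglobulin, haemoglobin and mitochondrial genes, 2 (both higher) scaled to V counts, 82 by DESeq2, 0 without the T-cell-poor libraries, and 0 to 79 with 1 library left out. Of the PS calls 15 were kappa, and 0 with all 28 libraries fitted. Of all genes, DESeq2 called 2.1% lower in R, 0.777% in RO and 10.7% in PS against NT. With the B cell covariate 0.905% were lower in R and 6.53% in PS. Scaled to V counts, 0.344% were higher in PS. Without the T-cell-poor libraries 3.19% were called in either direction in rPS, 0.241% in R and 0.0118% in PS.

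In rPS against PS the count was 0 with DESeq2 size factors, no filter, only these groups, the B cell covariate or V scaling, 2 with the other library size, 5 by DESeq2, 4 without the T-cell-poor libraries, and 0 to 3 with 1 library left out. In rPS against R it was 1 (higher) scaled to V counts, 2 (higher) by DESeq2 and 0 to 1 with 1 library left out, and in R against RO 1 by DESeq2. In rPS against RO it was 0 with only these groups, 4 (higher) scaled to V counts, 10 by DESeq2 and 0 to 1 with 1 library left out. Of all genes, DESeq2 called 0.193% lower in rPS against PS and 0.274% higher in rPS against R. It called 0.0584% lower in R against RO and 0.181% in rPS against RO. Scaled to V counts, 0.0992% were higher in rPS against R and 0.14% in rPS against RO. Without the T-cell-poor libraries 0.171% were lower in rPS against PS.

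With the replicate number as a block the counts were 96 in rPS against NT, 2 in R, 0 in RO and 0 in PS against NT, and 0 in rPS against PS. The labels gave no pairing. Pairs with different numbers were not set beside the same-numbered ones, so whether a number marks a shared batch was not tested. No comparison had every same-numbered pair correlated above 0.1. The share above it was 1 of 4 in rPS against NT, 3 of 6 in R, 3 of 4 in RO and 0 of 3 in PS against NT, 1 of 3 in rPS against PS, 2 of 4 in rPS against R, 3 of 4 in R against RO (0.07 to 0.76) and 1 of 3 in rPS against RO.

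Scaling to V counts moves the median of all genes in rPS against NT to 1.95 and calls 83.6% of them higher, so genes that fell less than the V total turn positive by construction. This holds for the 10 plasma cell, 13 B cell identity and 3 germinal centre genes called higher on that scale, which are no result of their own, and for the values of Ighv5-17 (0.10), Ighv6-3 (0.33), Igkv1-117 (0.41), Igkv1-110 (0.16), Iglv1 (0.28) and Iglv3 (0.94). Iglv2 ran from -0.21 to 0.36 with 1 library left out, and Ighv5-12 in R against RO from -3.52 to 0.28. Of 868 values of named segments under an alternative, 676 kept direction and side of the threshold, 159 lost the call, 21 gained one and 12 changed sign, 6 of these under V scaling. Fewer samples enter the 2-group and left-out fits; other causes were not tested. Depth limits rPS replicate 5 most, with 1634 V counts.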
